A study of Rattus norvegicus with 82 samples.

Results

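The 41 genes described here are genes of myeloid leukocytes, the family of monocytes, macrophages, dendritic cells and neutrophils, followed through RNA from isolated rat heart muscle cells (cardiomyocytes). They were chosen by gene symbol from a list of leukocyte integrins, macrophage receptors, complement C1q chains, lysosomal and antigen-presenting proteins, Fc receptors, signalling proteins, subunits of the phagocyte oxidase and inflammatory mediators. The table of 17337 genes holds 39 of them, and 36 had enough counts to be tested among 11954 tested genes. *Itgax* and *Dock2* are not analysed here. *Csf3r*, *S100a8* and *S100a9* had too few counts to pass the filter on low counts. Their counts are given as measured, and their tests come from a fit of 15564 genes without that filter.

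Macrophages live in the healthy heart between the muscle cells, where they clear debris and immune complexes, and carry receptors such as *Csf1r*, *Mrc1* and *Cd163* together with the 3 chains of C1q, the starter of the classical complement pathway. Monocytes and neutrophils enter from the blood when the heart is injured or overloaded. They bind the vessel wall with the integrin made by *Itgam* and *Itgb2*, sense microbes and damaged cells through *Tlr2*, *Tlr4* and *Cd14*, kill with the NADPH oxidase built on *Cybb*, and release mediators such as *Il1b*. The transcription factor PU.1, made from *Spi1*, binds GA-rich motifs before many of these genes.

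Collagenase perfusion released cardiomyocytes from 41 rats, separately for each right (RV) and left (LV) ventricle. The rats were F1 animals of Wistar Kyoto and Lewis parents of both sexes and gave 82 libraries in 12 groups. A band around the aorta (AOB) loaded the LV, a band around the pulmonary artery (PAB) loaded the RV, and sham-operated rats were the controls. Rats of the compensated, hypertrophic stage (H) comprised 7 Sham-H, 6 AOB-H and 6 PAB-H, by the labels 11 weeks old and 7 weeks after surgery. Rats of the failing stage (F) comprised 9 Sham-F and 7 AOB-F, 31 weeks old and 26 weeks after surgery, and 6 PAB-F, 28 weeks old and 22 weeks after surgery. The PAB-F rats were therefore younger than their Sham-F controls. All these ages are those of the labels, and the study itself states older ages at both stages. All groups shared the strain, and the labels name no engineered allele. The cells were enriched by filtering and centrifugation, and no sort against leukocytes is described for them. The study checked their purity by immunofluorescence and RT-qPCR, with *Cd68* and *Sirpa* as markers of blood mononuclear cells. It reads these checks as a quantitative loss of other cell types of the heart. Any leukocyte still carried along adds its RNA to a library. In such bulk RNA, fewer cells of a type and less RNA per cell cannot be told apart.

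Depth was between 6675287 and 19665439 counts on genes per library (median 13074485), and the 39 genes took between 0.0562% and 0.143% of them. Normalized counts of a gene are raw counts divided by the effective library size of edgeR and scaled to its mean of 13279120, and CPM values are raw counts scaled to a common effective library size (per M counts). The 9 ventricular cardiomyocyte markers were all detected in every group and summed to between 51230 and 96122 CPM in LV AOB-F. A gene was called when its Benjamini-Hochberg adjusted p over all tested genes was under 0.05 in the edgeR quasi-likelihood test, and every adjusted p below comes from that test. Replicates 6 and 7 of LV AOB-F, which are the LV libraries of 2 female rats, stood apart from the other 5 libraries of their group. Their cardiomyocyte markers summed to 51230 and 55448 CPM, against 71949 to 96122 CPM in the other 5. Results for LV AOB-F are therefore given with both libraries and without them.

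Per length, most of the genes were expressed at a low level. As deposited FPKM values (fragments scaled to gene length and library size), the mean over all 82 libraries was under 1 for 12 of the 39 genes and under 10 for 35, while the median over all genes of the table was 3.21. *Cd74*, which guides MHC class II through the cell, stood first with 296 FPKM, and *Ncf1*, a cytosolic subunit of the phagocyte oxidase, followed with 84.8 FPKM. The other oxidase subunits were far below it, *Cybb* at 2.25 FPKM and *Ncf4* at 0.413 FPKM. *Lyz2*, the lysozyme of macrophages and neutrophils, had 20.3 FPKM, and *C1qc* 10.4 FPKM. *Spi1* reached 6.68 FPKM, the scavenger and growth factor receptors between 0.0830 FPKM (*Csf3r*) and 5.04 FPKM (*Csf1r*), and the integrins and pan-leukocyte proteins between 0.756 FPKM (*Cd53*) and 1.68 FPKM (*Itgal*). *S100a8* and *S100a9*, the calgranulins of neutrophils, had 0.189 and 0.112 FPKM.

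Because *Cd74* and *Ncf1* held most of the counts and moved against the rest, the level of the genes as a whole was summed over the other 37, a choice made after the values were seen. The summed level was 492 ± 313 CPM in LV AOB-F (SD, n = 7), where the libraries lay between 139 and 1032. In LV Sham-F it was 217 ± 77.4 CPM (SD, n = 9), and the libraries lay between 132 and 371. Without replicates 6 and 7 it was 328 ± 145 CPM (SD, n = 5) and reached at most 528, so that LV AOB-F and LV Sham-F overlapped with and without them. The 2 libraries held 52.4% of the sum of the group. In the RV the level was 107 ± 35.2 CPM in Sham-F (SD, n = 9), 187 ± 127 CPM in AOB-F (SD, n = 7) and 202 ± 157 CPM in PAB-F (SD, n = 6). The RV libraries of the same 2 rats were also the highest there, and the other 5 RV AOB-F libraries gave 117 ± 15.8 CPM. In the RV of PAB-F replicate 1 alone reached 512 CPM, and the other 5 gave 140 ± 43.3 CPM. LV PAB-F had 242 ± 80.8 CPM (SD, n = 6). At the hypertrophic stage the 6 groups had means between 120 CPM (RV Sham-H) and 209 CPM (RV PAB-H).

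**Figure D1:**
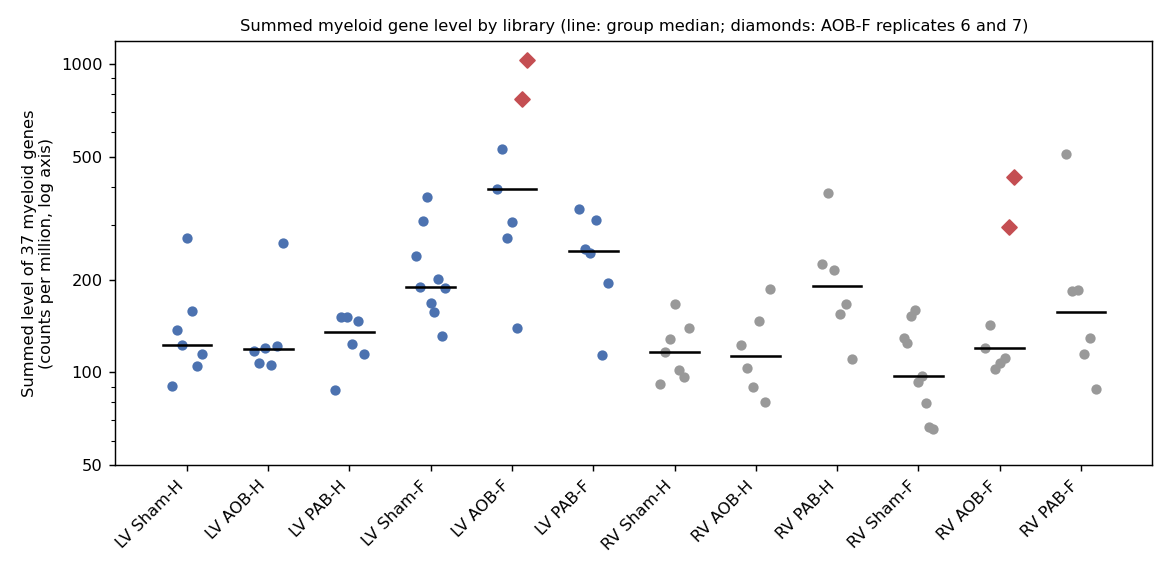
Summed level of the 37 myeloid genes other than Cd74 and Ncf1, in CPM of the effective library size on a log axis, for each library in the 12 groups. Points are libraries (blue for LV, grey for RV), red diamonds are replicates 6 and 7 of AOB-F, and black lines are group medians; LV AOB-F spans 139 to 1032 CPM and holds both red diamonds at its top.

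The comparison of LV AOB-F with LV Sham-F asks what changed in the cardiomyocyte preparation of the overloaded, failing LV. With all libraries, 17 of the 36 tested genes were called higher and 0 lower, while 8.54% of all tested genes were called higher and 4.35% lower. The members were chosen with earlier results of these data known, so that this share is a description and not an independent test. The median log2 fold change was 1.13 over the 36 genes and 0.04 over all genes, 34 of the 36 differences were positive, and 27 had an unadjusted p under 0.05 (28.7% of all tested genes). By the study's criteria, which ask for a log2 fold change beyond 1, a raw p not above 0.01 and more than 50 normalized counts on average, 13 of the genes and 1.21% of all tested genes were called. Here and below these cutoffs were applied to edgeR values, whereas the study used DESeq2 with shrunken fold changes. The mean was that of the banded group or, between sham groups, the higher of the 2 group means. Without replicates 6 and 7, 0 of the 36 were called, 10 had an unadjusted p under 0.05, 32 differences were positive, and the median was 0.57 against 0.03 over all genes. Of 12003 genes tested in that fit, 365 (3.04%) were called. DESeq2 called 19 of the genes with all libraries (13.2% of all genes tested there). An edgeR fit to these 2 groups alone called 1 (*Myo1f*), where 0.133% of all tested genes were called. A single left-out library moved the count from 17 to between 6 (without LV AOB-F replicate 7) and 23 (without LV AOB-F replicate 3 or 4). The called share of all tested genes moved as well. It was 6.29% without replicate 7, and 17.9% and 19% without replicates 3 and 4. *Cybb*, *Itgam*, *Lcp1*, *Lyz2*, *Myo1f* and *Tlr2* were called in every fit that left out 1 library.

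Among the integrins and pan-leukocyte proteins, 2 of 6 tested genes rose. *Itgam*, the alpha chain of the phagocyte integrin Mac-1, had normalized counts of 47.7, 126, 44.3, 65.4, 26.2, 312 and 661 in replicates 1 to 7. In LV Sham-F its 9 libraries lay between 11.2 and 74.5, with a median of 30.01. Only replicates 2, 6 and 7 stood above the sham range, and the log2 fold change was 2.37 ± 0.49 (SE, adjusted p = 0.00098). Without replicates 6 and 7 it was 0.81 ± 0.48 (adjusted p = 0.342). *Itgb2*, the beta chain shared by the leukocyte integrins, gave 384 and 788 in replicates 6 and 7 and 30.1 to 176 in the other 5, against 21.4 to 95.9 in LV Sham-F. Its log2 fold change of 2.18 ± 0.52 (adjusted p = 0.00375) became 0.66 ± 0.53 (adjusted p = 0.5002) without them. *Itgal*, the alpha chain of LFA-1 and the highest of these genes per length, showed the reverse order of libraries, with its 2 lowest values (86.0 and 96.1) in replicates 6 and 7, and a log2 fold change of 0.19 ± 0.16 (adjusted p = 0.458), or 0.32 without them. *Ptprc*, *Cd53* and *Cd37* had log2 fold changes of 1.13, 1.34 and 0.39 and did not pass, and had 0.75, 0.31 and 0.32 without replicates 6 and 7.

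Of the receptors of macrophages, *Cd68*, *Mrc1* and *Csf1r* rose and *Cd163* did not pass. *Csf1r*, the receptor that keeps macrophages alive, had 684.8, 737, 437, 573, 184, 839 and 999 normalized counts in LV AOB-F replicates 1 to 7 and between 208 and 576 in LV Sham-F. Replicate 5 was below every sham library and replicates 1, 2, 6 and 7 above all of them, and the log2 fold change was 0.89 ± 0.27 (adjusted p = 0.0224) with all libraries and 0.61 ± 0.29 (adjusted p = 0.220) without replicates 6 and 7. *Mrc1*, the mannose receptor, was highest in replicate 2 (501) and replicate 1 (424), ahead of replicates 7 (408) and 6 (299.8), and its log2 fold change hardly moved, from 1.13 ± 0.34 (adjusted p = 0.0202) to 1.02 ± 0.37 (adjusted p = 0.1004). *Cd163*, the hemoglobin scavenger receptor, had 303 and 306 in replicates 1 and 2, 112 and 117 in replicates 6 and 7, and 34.96 to 148 in the other 3. It was the gene with the lowest adjusted p without replicates 6 and 7, at a log2 fold change of 1.13 ± 0.38 (adjusted p = 0.0775). *Cd68*, a lysosomal glycoprotein of macrophages, had 102 and 315 in replicates 6 and 7 and 16.5 to 107 in the other 5, and its log2 fold change fell from 1.42 ± 0.36 (adjusted p = 0.00597) to 0.46 ± 0.36 (adjusted p = 0.488). *Csf3r*, the receptor for the neutrophil growth factor G-CSF, had 43.4 and 62.2 normalized counts in replicates 6 and 7, at most 8.25 in the other 5, and at most 7.45 in LV Sham-F. In the fit without the filter it was called higher, at a log2 fold change of 2.33 ± 0.71 (adjusted p = 0.028).

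The C1q chains did not pass, 0 of 3 called. *C1qc* had 478, 788, 354, 487, 69.9, 461 and 324 normalized counts in LV AOB-F replicates 1 to 7, against 111 to 487 in LV Sham-F. Replicate 6 was the median and replicate 7 the second lowest of the group, replicate 5 was below every sham library, and replicate 2 was the highest of the group. The log2 fold changes of *C1qa*, *C1qb* and *C1qc* were 0.83 ± 0.37, 0.74 ± 0.40 and 0.65 ± 0.39 with all libraries and 0.84 ± 0.41, 0.69 ± 0.44 and 0.70 ± 0.43 without replicates 6 and 7.

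The lysosomal and antigen-presenting genes went in different directions. *Lyz2* had 389, 581, 401, 187, 206, 3037 and 3909 normalized counts in LV AOB-F replicates 1 to 7. Its LV Sham-F values were 151 to 704, with a median of 251. Only replicates 6 and 7 lay above the sham range, and the log2 fold change of 2.12 ± 0.47 (adjusted p = 0.0019) became 0.31 ± 0.44 (adjusted p = 0.743) without them. *Ctss*, a cysteine protease that trims the class II chaperone, was above every sham library in 5 of 7 libraries, and its log2 fold change of 1.22 ± 0.38 (adjusted p = 0.0217) stayed at 1.12 ± 0.41 (adjusted p = 0.0995) without replicates 6 and 7. *Cd74* had 5718, 6633, 6154, 7735 and 4344 normalized counts in replicates 1 to 5 but 2082 and 1709 in replicates 6 and 7, where LV Sham-F ranged from 5364 to 8590. Its log2 fold change was -0.42 ± 0.17 (adjusted p = 0.0734), and -0.10 ± 0.14 (adjusted p = 0.735) without replicates 6 and 7. *Laptm5* had a log2 fold change of 0.69 ± 0.35 (adjusted p = 0.187), and 0.33 without them.

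Of the Fc receptors and their adaptors, *Fcgr2b*, the inhibitory IgG receptor, rose from at most 7.45 normalized counts in LV Sham-F to 36.04 and 31.1 in replicates 6 and 7, with 0.77 to 7.26 in the other 5. Its log2 fold change was 2.03 ± 0.57 (adjusted p = 0.0125), and 0.56 ± 0.64 (adjusted p = 0.670) without the 2 libraries. In every sham group *Fcgr2b* stayed at or below 7.69 normalized counts. It passed the filter on low counts through banded libraries in which it was high, among them these 2, and its call is read with that limit. *Tyrobp*, the adaptor DAP12, had 12.6 to 119 in replicates 1 to 5, 193 and 269 in replicates 6 and 7, and 25.4 to 112 in LV Sham-F, for a log2 fold change of 1.10 ± 0.47 (adjusted p = 0.102), and 0.39 without the 2 libraries. *Fcer1g* had a log2 fold change of 0.41 ± 0.30 (adjusted p = 0.362), which turned to -0.19 ± 0.32 (adjusted p = 0.782) without them.

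In the group of cytoskeletal and signalling proteins, 5 of 8 tested genes rose. *Myo1f*, a myosin of leukocytes, was the member without overlap between the groups, where 0.0586% of all tested genes did not overlap and were higher. It had 105, 139, 93.8, 122, 78.7, 172 and 312 normalized counts in LV AOB-F replicates 1 to 7 and 53.9 to 71.2 in LV Sham-F. Its log2 fold change was 1.21 ± 0.26 (adjusted p = 0.00157), and 0.78 ± 0.27 (adjusted p = 0.0867) without replicates 6 and 7, where the 5 libraries still lay above the sham range. *Lcp1*, which bundles actin in leukocytes, ran from 131 to 453 in replicates 1 to 5, reached 589 and 1015 in replicates 6 and 7, and ran from 68.6 to 412 in LV Sham-F. Its log2 fold change of 1.39 ± 0.32 (adjusted p = 0.00242) became 0.79 ± 0.33 (adjusted p = 0.147). *Fgr*, a Src family kinase of myeloid cells, had 179 and 289 in replicates 6 and 7 against 18.5 to 48.3 in the other 5, a range inside that of LV Sham-F (9.80 to 51.2). Its log2 fold change fell from 1.71 ± 0.44 (adjusted p = 0.00635) to 0.30 ± 0.44 (adjusted p = 0.756). *Aif1*, the macrophage protein IBA1, had 39.3 and 66.9 in replicates 6 and 7, 5.83 to 25.1 in the other 5 and 3.92 to 15.5 in LV Sham-F, for a log2 fold change of 1.63 ± 0.51 (adjusted p = 0.0248), and 0.75 ± 0.56 (adjusted p = 0.467) without them. *Vav1* rose by 1.30 ± 0.44 on the log2 scale (adjusted p = 0.0377), but did not pass at 0.99 ± 0.48 (adjusted p = 0.22) without them. *Coro1a*, *Lcp2* and *Was*, with 0.85, 0.63 and 0.45, did not pass, and had 0.20, 0.70 and 0.44 without them.

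The oxidase subunits and *Spi1* did not share 1 order of libraries. *Cybb*, the catalytic subunit gp91phox, was high in replicates 1, 2, 6 and 7 (128, 158, 118 and 161 normalized counts) and 26.2 to 44.6 in the other 3, against 5.48 to 86.6 in LV Sham-F. Its log2 fold change was 1.42 ± 0.37 (adjusted p = 0.0075) and, without replicates 6 and 7, 1.14 ± 0.40 (adjusted p = 0.0905). *Ncf1* was lowest in replicates 6 and 7 (1532 and 1591), below the sham range of 2807 to 4896, and lay between 2783 and 3906 in the other 5, with a log2 fold change of -0.32 ± 0.13 (adjusted p = 0.0952), and -0.09 without them. *Ncf4* had 49.96 and 70.6 in replicates 6 and 7 and 4.86 to 14.9 in the other 5, with a log2 fold change of 1.39 ± 0.52 (adjusted p = 0.0613), and 0.15 without the 2 libraries. *Spi1* had 251 and 294 in replicates 6 and 7, 99.6 to 162 in the other 5 and 95.3 to 219 in LV Sham-F, with a log2 fold change of 0.27 ± 0.16 (adjusted p = 0.274) that turned to -0.12 ± 0.16 (adjusted p = 0.738) without the 2 libraries.

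Of the genes of pattern recognition and inflammation, 3 of 4 tested rose. *Tlr2*, a sensor of bacterial lipoproteins, had the lowest adjusted p of the whole set. It had 45.7, 76.2, 50.5, 36.2, 28.2, 292 and 337 normalized counts in LV AOB-F replicates 1 to 7, against 8.82 to 53.98 in LV Sham-F, so that 3 libraries lay above the sham range. Its log2 fold change was 2.11 ± 0.39 (adjusted p = 0.00024), and 0.73 ± 0.37 (adjusted p = 0.256) without replicates 6 and 7. *Il1b*, the precursor of interleukin-1 beta, had 210.5 and 504 in replicates 6 and 7, 21.6 to 79.9 in the other 5, and 16.7 to 60.5 in LV Sham-F. Its log2 fold change fell from 1.78 ± 0.45 (adjusted p = 0.00579) to 0.25 ± 0.45 (adjusted p = 0.807). *Cd14*, the lipopolysaccharide co-receptor, had 531 and 624.5 in replicates 6 and 7 and 56.3 to 315 in the other 5, for a log2 fold change of 1.403 ± 0.43 (adjusted p = 0.02), and 0.58 ± 0.45 (adjusted p = 0.484) without the 2 libraries. *Tlr4*, its partner, had 0.35 ± 0.27 (adjusted p = 0.394) and 0.33 without them. *S100a8* and *S100a9* had 14.1 to 19.8 normalized counts in replicates 6 and 7, at most 5.19 in the other 5 and at most 3.72 in LV Sham-F. In the fit without the filter *S100a9* was called higher, at a log2 fold change of 3.53 ± 0.86 (adjusted p = 0.00591), and *S100a8* had 2.43 ± 0.87 (adjusted p = 0.0669). That fit was not run without replicates 6 and 7.

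**Figure D2:**
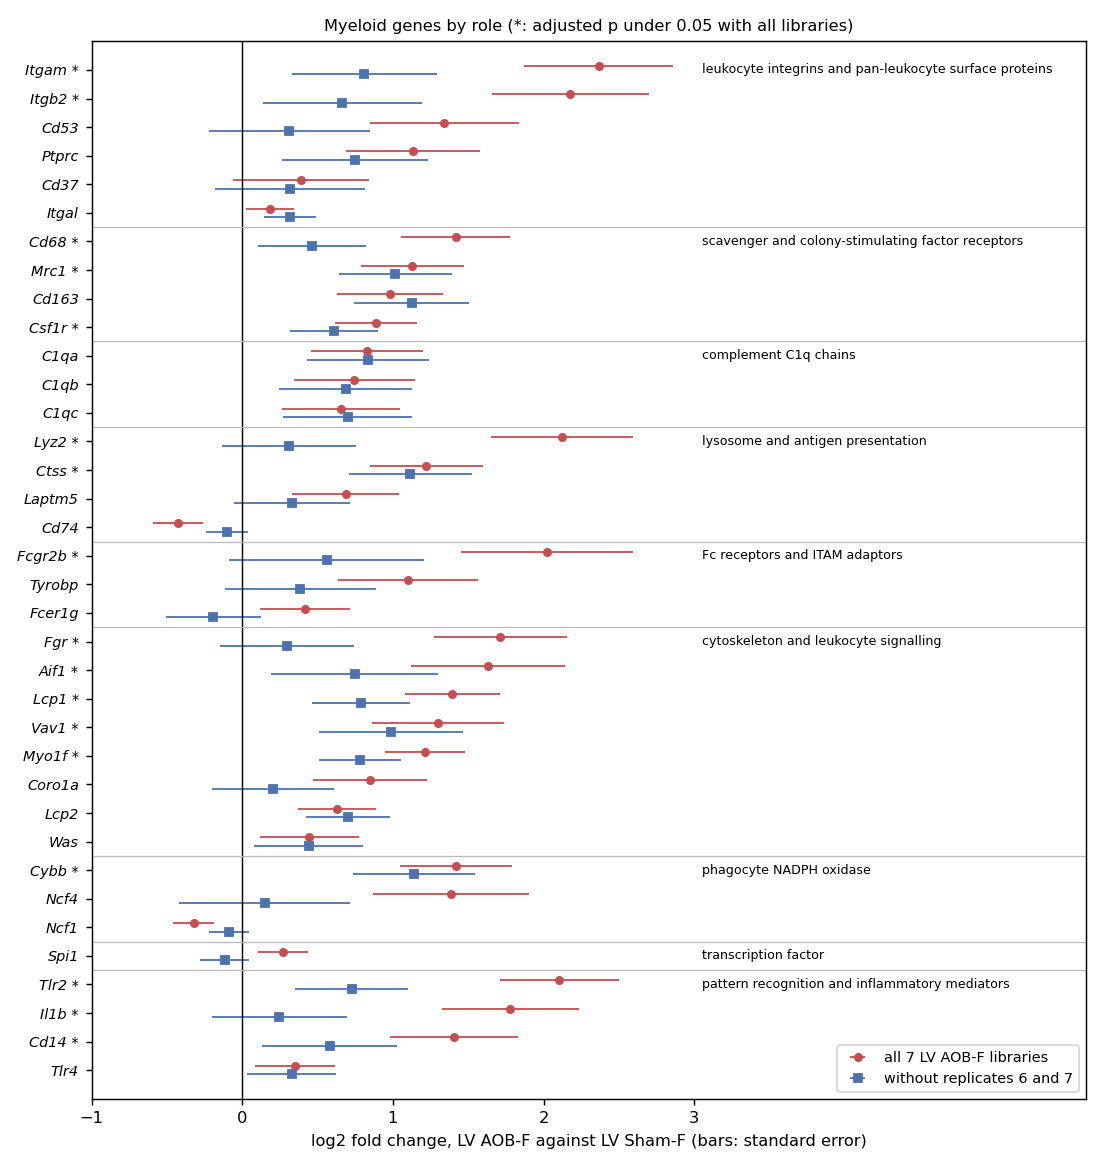
Log2 fold change of the 36 tested myeloid genes between the LV AOB-F and LV Sham-F groups, ordered by role, with bars for the standard error of the fit. Red circles use all 7 LV AOB-F libraries and blue squares leave out replicates 6 and 7, with stars at genes called with all libraries; Itgam moves from 2.37 to 0.81 and Lyz2 from 2.12 to 0.31, whereas C1qa stays at 0.83 and 0.84.

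Replicates 6 and 7 were the 2 highest LV AOB-F libraries for 22 of the 39 genes, and for 12 of the 17 that were called. The same count over all genes is not given here. High values in these 2 libraries also led to calls, so that the 12 of 17 is no separate result. For 3 of the 39 genes they were the 2 lowest, and these were *Itgal*, *Cd74* and *Ncf1*. Replicate 7 alone was the highest of the 7 libraries for 24 of the 39 genes, compared with 18.6% of all genes. The number of the 39 genes above every LV Sham-F library was 28 in replicate 6 and 29 in replicate 7, where 19.8% and 24.1% of all tested genes were above it. It was 12 in replicate 1 (22.3% of all tested genes), 22 in replicate 2 (12.6%), and 4, 5 and 1 in replicates 3, 4 and 5 (8.83%, 12.7% and 15.2%). The ratio of *Lyz2* to the sum of the 3 C1q chains, in normalized counts, was 2.55 and 4.88 in replicates 6 and 7, 0.357 and 0.318 in replicates 1 and 2, and 0.528, 0.167 and 0.955 in replicates 3, 4 and 5. In LV Sham-F the ratio was 0.539 ± 0.299 (SD, n = 9), with a highest value of 1.19.

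Markers of leukocytes and other cells were summed in each LV AOB-F library. The 10 neutrophil markers, of which 2 had a mean under 1 count in the group, summed to 8.57 and 12.4 CPM in replicates 6 and 7 and 0.146 to 1.33 CPM in the other 5, against 0.466 to 1.78 CPM in LV Sham-F. As 3 of the 10 are members (*Csf3r*, *S100a8* and *S100a9*), the other 7 were also summed, to 2.96 and 5.18 CPM in replicates 6 and 7 and 0.0731 to 1.04 in the other 5, against 0.388 to 1.277 in LV Sham-F. Of the resident macrophage markers, *Lyve1*, *Folr2* and *F13a1* are no members. They summed to 35.8 and 35.6 CPM in replicates 6 and 7, 30.1 and 35.2 CPM in replicates 1 and 2, and 8.996 to 15.8 CPM in the other 3, against 6.86 to 26.6 CPM in LV Sham-F. The 4 detected of 6 monocyte markers had 89.1 and 79.7 CPM in replicates 6 and 7 and 30.9 to 84.6 in the other 5. Among these markers is *Vcan*, which the study lists as a matrix gene, so that the sum need not come from monocytes alone. Dendritic cell markers were lowest in replicates 6 and 7, at 41.3 and 32.3 CPM against 43.5 to 58.8 in the other 5. Mast cell markers were lowest there too, at 26.6 and 19.01 CPM against 28.4 to 59.2. B cell markers, at 0.432 and 0.638 CPM, lay within the range of the other 5. The 10 T and natural killer cell markers had 4.81 and 4.47 CPM in replicates 6 and 7 and 3.14 to 12.96 in the other 5, and red blood cell markers 17.8 and 11.9 CPM against 48.4 to 90.1. Fibroblast markers, at 767 and 705 CPM, and endothelial markers, at 2583 and 1802 CPM, lay within or below the range of the other 5. The part of these cells in the level of the myeloid genes was not tested.

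The promoters of a few of these genes are shown because 17 of the genes were called higher in LV AOB-F. Windows of 300 bases, 250 before and 50 after the annotated start, were taken from RefSeq on the build GRCr8, and 27 of the 39 genes had a window. The 6 letters GAGGAA, or TTCCTC on the other strand, which are a core of the motif read by PU.1, were found in 20 of the 27 windows (74.1%), in 10 of the 13 windows of called genes (76.9%) and in 27.6% of all 33469 windows of this length. The longer GAGGAAGT, or ACTTCCTC, which contains the first motif, was found in 4 of 27 (14.8%) and in 2.42% of all windows. A match describes letters in a window and is neither a shown binding site nor a cause of any level here. The sequences follow from 5′ to 3′ on the strand of the gene, with matches to GAGGAA or TTCCTC in capitals. *Itgam*, *Lyz2* and *Cybb* are shown as genes that were called in every fit that left out 1 library, *Mrc1* as a called receptor that was highest in other libraries, and *Tlr2* as the called gene with the lowest adjusted p, whose window holds no match.
Itgam promoter, chr1:192089342-192089641, plus strand: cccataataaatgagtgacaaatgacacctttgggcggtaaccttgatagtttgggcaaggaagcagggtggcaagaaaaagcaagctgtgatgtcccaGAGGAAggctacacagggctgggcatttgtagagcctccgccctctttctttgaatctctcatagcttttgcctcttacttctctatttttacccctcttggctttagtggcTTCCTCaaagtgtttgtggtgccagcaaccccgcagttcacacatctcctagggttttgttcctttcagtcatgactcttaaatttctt
Lyz2 promoter, chr7:54797962-54798261, minus strand: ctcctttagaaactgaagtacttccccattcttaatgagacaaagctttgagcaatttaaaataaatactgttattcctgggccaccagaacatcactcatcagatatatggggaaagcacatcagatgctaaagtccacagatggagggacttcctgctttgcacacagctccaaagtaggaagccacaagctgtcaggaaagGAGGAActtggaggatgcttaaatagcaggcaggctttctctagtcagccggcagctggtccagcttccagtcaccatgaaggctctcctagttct
Cybb promoter, chrX:16065016-16065315, minus strand: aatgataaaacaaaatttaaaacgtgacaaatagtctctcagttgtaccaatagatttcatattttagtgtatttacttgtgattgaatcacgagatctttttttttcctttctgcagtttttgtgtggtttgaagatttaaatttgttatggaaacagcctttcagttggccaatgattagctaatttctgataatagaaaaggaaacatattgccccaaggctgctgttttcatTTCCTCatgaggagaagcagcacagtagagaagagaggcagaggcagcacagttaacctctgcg
Mrc1 promoter, chr17:82157475-82157774, plus strand: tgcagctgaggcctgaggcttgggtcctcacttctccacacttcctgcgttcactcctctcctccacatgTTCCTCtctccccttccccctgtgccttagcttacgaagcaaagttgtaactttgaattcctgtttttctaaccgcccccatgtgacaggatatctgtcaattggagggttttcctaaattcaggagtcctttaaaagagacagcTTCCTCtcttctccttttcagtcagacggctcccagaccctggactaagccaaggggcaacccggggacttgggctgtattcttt
Tlr2 promoter, chr2:171504508-171504807, minus strand: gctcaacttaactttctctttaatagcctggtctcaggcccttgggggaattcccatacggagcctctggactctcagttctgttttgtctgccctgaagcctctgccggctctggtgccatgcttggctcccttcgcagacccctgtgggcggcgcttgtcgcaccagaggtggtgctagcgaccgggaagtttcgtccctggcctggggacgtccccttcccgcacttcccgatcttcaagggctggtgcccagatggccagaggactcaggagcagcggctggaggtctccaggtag
In the *Itgam* window the matches began 151 and 39 bases before the start, in that of *Mrc1* 180 and 35 bases before it, in that of *Lyz2* 46 and in that of *Cybb* 14 bases before it.

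The RV of the same AOB-F rats, which the aortic band does not load directly, was compared with RV Sham-F. Here 0 of the 36 genes were called by edgeR and 0 by DESeq2, where 0.0669% of all tested genes were called higher. By the study's criteria 2 of the genes and 0.259% of all tested genes were called. At an unadjusted p under 0.05 there were 16 (4.32% of all tested genes), the median log2 fold change was 0.72 against 0.01 over all genes, and the lowest adjusted p was 0.512 (*Mrc1*, 1.10 ± 0.35). Replicates 6 and 7 were again the 2 highest libraries for 29 of the 39 genes, a count given without its share over all genes. Replicate 7 alone was the highest for 29 of the 39, compared with 21% of all genes. *Lyz2* had 662 and 1100 normalized counts in RV replicates 6 and 7 and 88.3 to 230 in the other 5, against 68.98 to 344 in RV Sham-F. *Itgam* had 109.9 and 183 in those 2 libraries, 10.2 to 34.6 in the other 5 and 4.87 to 68.8 in RV Sham-F. *Mrc1* had 329 and 541, against 90.9 to 153 in the other 5, and *Cd163* 139.6 and 206, against 35.7 to 76.4. In the RV the 2 libraries were thus also the highest for *Mrc1*, *Cd163* and the C1q chains, which they were not in the LV. *Cd74* was lowest in them there too, with 3322 and 2456 against 4282 to 4650. The ratio of *Lyz2* to the C1q chains was at most 2.84 in RV AOB-F and at most 2.54 in RV Sham-F. Leaving out both RV libraries, a choice made after the values were seen, the median log2 fold change over the members was 0.09 and 0 were called. The difference of the AOB responses, LV minus RV, passed for 0 of the 36 genes by edgeR or DESeq2 and for 0% of all tested genes. At an unadjusted p under 0.05 there was 1 (9.71% of all tested genes), and the median was 0.37, which became -0.16 without LV AOB-F replicates 6 and 7.

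**Figure D3:**
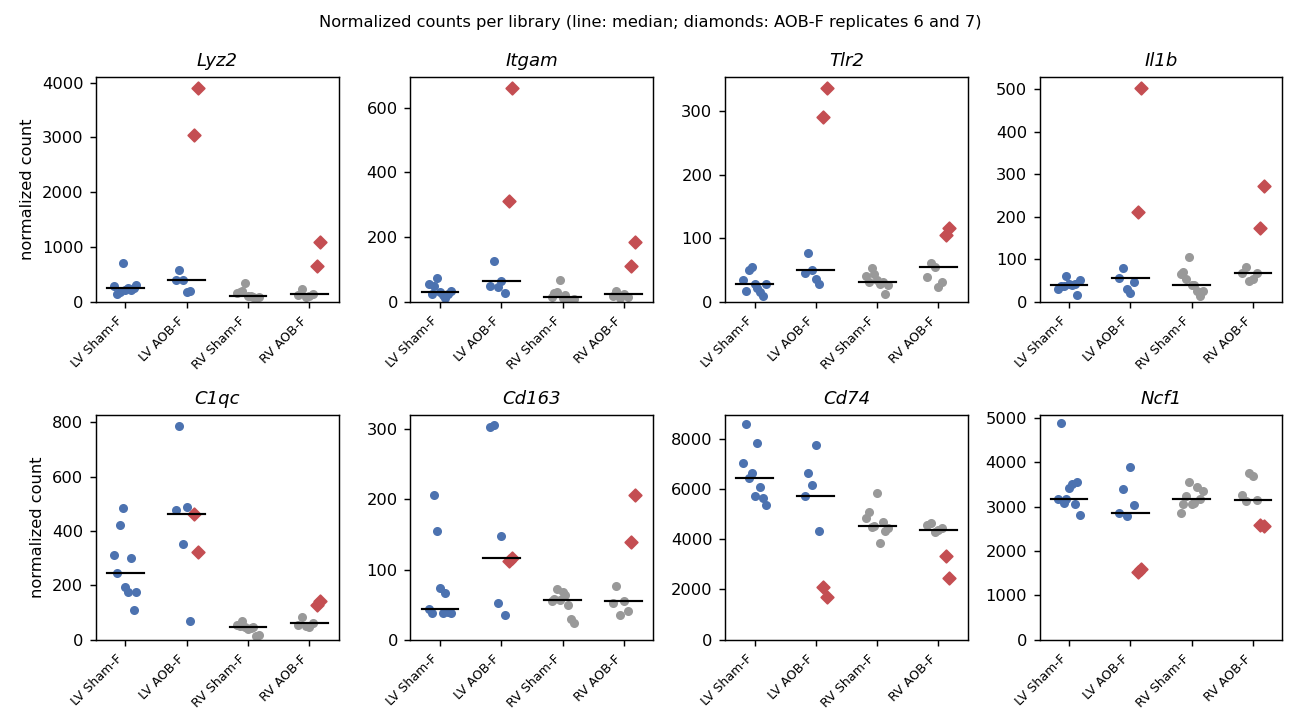
Normalized counts of 8 myeloid genes in each library of LV Sham-F, LV AOB-F, RV Sham-F and RV AOB-F, on linear axes that start at 0, with lines at group medians and red diamonds for AOB-F replicates 6 and 7. The diamonds are the highest points for Lyz2, Itgam, Tlr2 and Il1b in both ventricles, lie inside the LV AOB-F range for C1qc and Cd163, and are the lowest LV AOB-F points for Cd74 and Ncf1.

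The comparison of RV PAB-F with RV Sham-F concerns the overloaded, failing RV. With 6 of 36 genes called higher and 0 lower, and 7.66% of all tested genes called higher and 3.42% lower, the called share of the genes was 16.7%. The median log2 fold change was 0.87 over the genes and 0.02 over all genes, and 20 had an unadjusted p under 0.05 (27.9% of all tested genes). By the study's criteria 3 of the genes and 1.9% of all tested genes were called. *Lyz2* had 1401, 366, 242, 156, 228 and 85.5 normalized counts in RV PAB-F replicates 1 to 6, against 68.98 to 344 in RV Sham-F, and a log2 fold change of 1.47 ± 0.50 (adjusted p = 0.0418). *Il1b* had 512 in replicate 1 and 42.2 to 83.9 in the other 5, against 12.6 to 106 in RV Sham-F, and a log2 fold change of 1.47 ± 0.47 (adjusted p = 0.0304). Replicate 1 was the only library above the sham range for *Il1b*. *Mrc1* had 579.6 in replicate 1 and 64.9 to 224 in the other 5, against 42.1 to 147 in RV Sham-F, and a log2 fold change of 1.12 ± 0.36 (adjusted p = 0.0332). *Csf1r* had 524 in replicate 1 and 88.6 to 221 in the other 5, against 61.9 to 167, and a log2 fold change of 0.90 ± 0.30 (adjusted p = 0.036). *Tlr4* had 138 in replicate 1 and 42.6 to 85.9 in the other 5, against 17.2 to 82.3, and a log2 fold change of 0.89 ± 0.28 (adjusted p = 0.0264). *Was*, the actin regulator lost in Wiskott-Aldrich syndrome, had 31.3 in replicate 1 and 6.18 to 15.1 in the other 5, against 0 to 13.7, and a log2 fold change of 1.21 ± 0.41 (adjusted p = 0.0454). In each of the 6 genes the groups overlapped, where 1.24% of all tested genes were higher without overlap.

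RV PAB-F replicate 1 was the highest of its 6 libraries for 34 of the 39 genes, compared with 27.1% of all genes. Without it 0 of the 36 genes were called, and the log2 fold changes of *Il1b* and *Lyz2* were 0.34 and 0.54. Leaving out RV Sham-F replicate 7, 8 or 9 in turn also left 0 called, at median log2 fold changes of 0.79, 0.75 and 0.79 over the genes. The count was 2 without RV PAB-F replicate 2 and 3 without RV Sham-F replicate 5 or 6. Most marker sums were also highest in RV PAB-F replicate 1, but those of B cells, mast cells and cardiomyocytes were not. The 10 fibroblast markers summed to 1803 CPM in replicate 1 and 283 to 789.8 in the other 5, against 173 to 528 in RV Sham-F, and 4 of the 9 tested were called higher in the comparison. Of the 8 resident macrophage markers 4 are members (*Cd163*, *Mrc1*, *Csf1r* and *C1qa*). The other 3 in the table (*Lyve1*, *Folr2* and *F13a1*) summed to 24.5 CPM in replicate 1 and 4.50 to 13.3 in the other 5, against 3.45 to 10.7 in RV Sham-F. Its cardiomyocyte markers, at 88726 CPM, were the lowest of the group. Their part in the result was not tested. *Cd74* and *Ncf1* had log2 fold changes of -0.35 ± 0.17 (adjusted p = 0.179) and -0.28 ± 0.14 (adjusted p = 0.183), with all 6 RV PAB-F libraries of *Cd74* below the sham median. In the LV of the PAB-F rats, 0 of 36 genes and 0% of all tested genes were called by edgeR, 0 of the genes by DESeq2, 0 had an unadjusted p under 0.05 (3.8% of all tested genes), and the median log2 fold change was 0.15. The difference of the PAB responses, RV minus LV, was called for 0 genes by edgeR or DESeq2, where 0.351% of all tested genes were called. At an unadjusted p under 0.05 there were 3 (12.9% of all tested genes), and the median was 0.71.

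At the hypertrophic stage few of the genes were called. RV PAB-H against RV Sham-H had 2 genes called higher, 5.56% of the 36 where 3.91% of all tested genes were called higher, so that the share was near the background. *Tlr4* had 81.2, 214, 115, 81.5, 46.9 and 82.7 normalized counts in RV PAB-H replicates 1 to 6 and 28.5 to 60.2 in RV Sham-H, with 5 of 6 libraries above the sham range and a log2 fold change of 1.23 ± 0.29 (adjusted p = 0.0107). *Was* had 7.41 to 26.1 against 3.38 to 8.67, again with 5 of 6 libraries above the sham range, and a log2 fold change of 1.34 ± 0.42 (adjusted p = 0.0489). The median log2 fold change was 0.82, and 13 genes had an unadjusted p under 0.05 (20.6% of all tested genes). By the study's criteria 3 of the genes and 1.82% of all tested genes were called. Replicate 2 of RV PAB-H was highest for 28 of the 39 genes (32% of all genes), and without it 0 genes were called. Its fibroblast markers summed to 2754 CPM against 397 to 1435 in the other 5 and 253 to 496 in RV Sham-H, and all 9 tested fibroblast markers were called higher in the comparison, with a median log2 fold change of 1.37. Their part in the result was not tested. In the LV of AOB-H, 0 genes were called by edgeR and 0 by DESeq2, where 0.0167% of all tested genes were called. An unadjusted p under 0.05 was reached by 3 (20% of all tested genes), and 11 of 36 differences were positive, with a median of -0.30. The median was 0.0017 without LV Sham-H replicate 4 and -0.55 without LV AOB-H replicate 6. *Tlr4* had the lowest adjusted p (0.113), at a log2 fold change of 0.88 ± 0.29. RV AOB-H and LV PAB-H had 0 called genes by either tool (0% of all tested genes by edgeR), 0 with an unadjusted p under 0.05 (1.43% and 2.55% of all tested genes) and medians of -0.01 and -0.21. The LV response to AOB was larger at failure than at hypertrophy by a median of 1.31 on the log2 scale, with 20 of 36 genes at an unadjusted p under 0.05 (9.6% of all tested genes), but 0 passed by edgeR, as did 0% of all tested genes, and 1 by DESeq2. *Tlr2* came closest, at a difference of 2.55 ± 0.62 (adjusted p = 0.0803). Without LV AOB-F replicates 6 and 7 the median difference was 0.71, and 0 passed by edgeR.

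**Figure D4:**
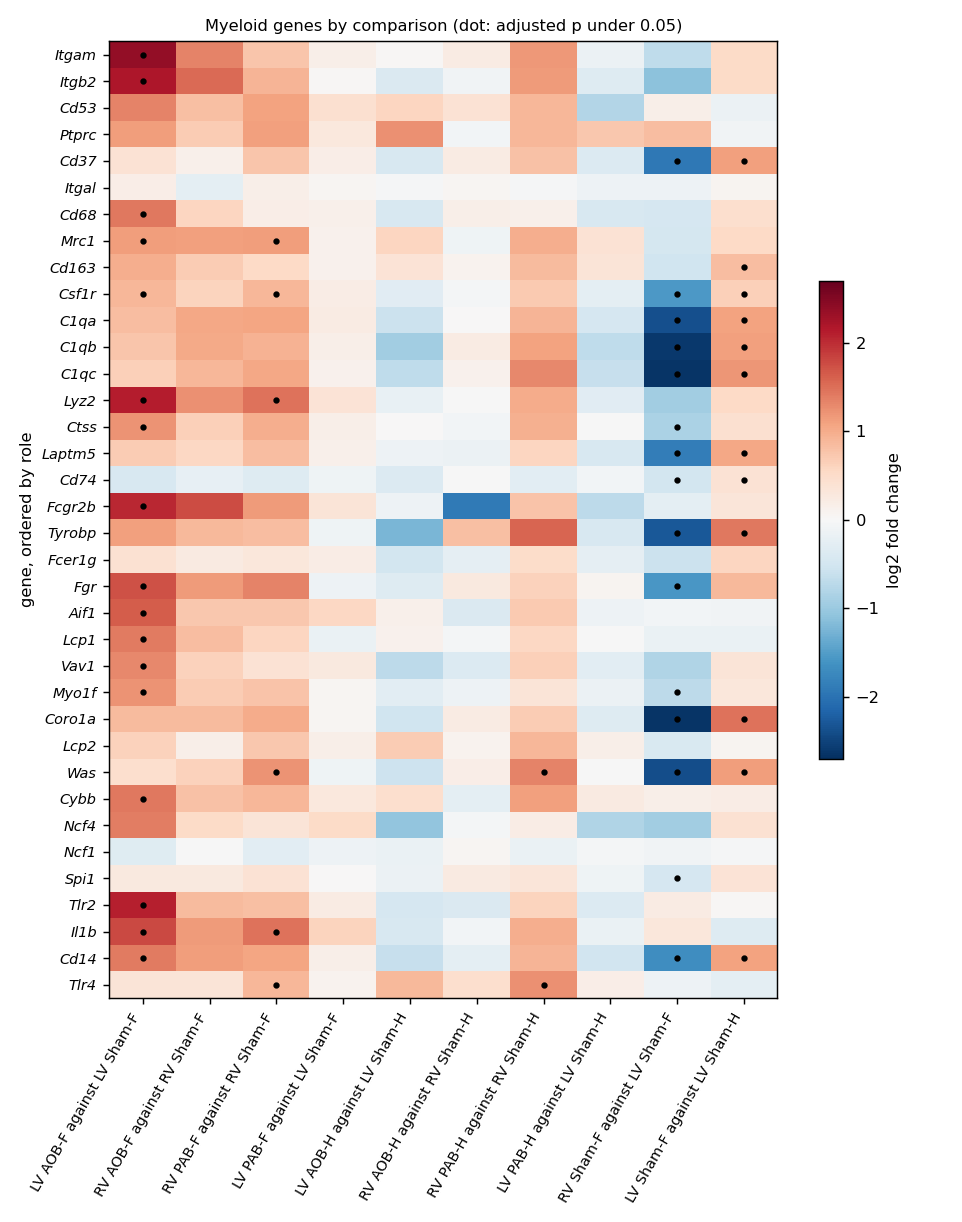
Log2 fold change (colour, red for higher and blue for lower) of the 36 tested myeloid genes, in rows ordered by role, in 10 comparisons of groups in columns, with all libraries in the fit. A dot marks an adjusted p under 0.05; there are 17 dots for LV AOB-F, 6 for RV PAB-F, 2 for RV PAB-H, 15 for RV against LV in Sham-F and 12 for LV Sham-F against LV Sham-H.

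The sham groups differed too, and the banded groups are read against these levels. In Sham-F, 15 of the 36 genes were lower in the RV than in the LV and 0 higher, where 38.6% of all tested genes were called lower and 35.6% higher. The lower share of the genes (41.7%) was thus close to the background. By the study's criteria 8 of the genes and 27.7% of all tested genes were called. All 3 C1q chains, *Cd74*, *Laptm5*, *Ctss*, *Csf1r*, *Tyrobp*, *Cd37*, *Cd14*, *Spi1* and 4 of 8 signalling proteins were among the 15. *Coro1a*, a coat protein of leukocyte actin, had 5.13 to 28.5 normalized counts in the 9 RV libraries and 31.4 to 163 in the 9 LV libraries, and a log2 fold change of -2.65 ± 0.41 (adjusted p = 3.36e-08). *C1qc* had 13.8 to 70.1 in the RV and 111 to 487 in the LV, and a log2 fold change of -2.64 ± 0.41 (adjusted p = 3.63e-08). *C1qb*, *Was*, *C1qa*, *Tyrobp*, *Cd37* and *Laptm5* had log2 fold changes of -2.60, -2.39, -2.37, -2.28, -1.92 and -1.87. *C1qc*, *Cd14*, *Coro1a*, *Csf1r* and *Laptm5* did not overlap between the ventricles, as did 19.4% of all tested genes in the same direction. By contrast *Tlr2*, *Il1b*, *Cybb* and *Lcp1* had log2 fold changes of 0.23, 0.32, 0.15 and -0.17 and did not pass. With the animal as a block, 20 genes were called, a count given without its share of all tested genes. Summed markers of other cells were lower in the RV of Sham-F as well, at 888 CPM against 2805 CPM for the 7 endothelial markers and 307 CPM against 803 CPM for the 10 fibroblast markers, whereas the cardiomyocyte markers were higher, at 132404 CPM against 84525 CPM. Their part in the result was not tested.

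In Sham-H, 0 genes were called between the ventricles by edgeR, where 11.4% of all tested genes were lower in the RV, 3 had an unadjusted p under 0.05 (36.4% of all tested genes), and DESeq2 called 1. With the animal as a block, *Coro1a* was called lower in the RV and *Ptprc*, the leukocyte common antigen CD45, higher. *C1qc* had the lowest adjusted p (0.0516), at a log2 fold change of -1.18 ± 0.45. Between the stages, 12 of 36 genes were higher in LV Sham-F than in LV Sham-H and 0 lower, where 27.8% of all tested genes were called higher and 29.6% lower. The higher share of the genes was thus near the background. By the study's criteria 5 of the genes and 8.05% of all tested genes were called. *Coro1a* had 31.4 to 163 normalized counts in LV Sham-F and 17.6 to 86.3 in LV Sham-H, with a log2 fold change of 1.47 ± 0.41 (adjusted p = 0.00175). *Tyrobp* rose by 1.43, *C1qc* by 1.19, *Was* by 1.12, *Cd37* by 1.11, *C1qb* by 1.11, *C1qa* by 1.09 and *Cd14* by 1.08 on the log2 scale. For each of these 7 genes all 9 libraries of LV Sham-F lay above the LV Sham-H median and the groups overlapped. The count was 6 without LV Sham-F replicate 4 or LV Sham-H replicate 1, and 7 without LV Sham-H replicate 6 or 7. Mean marker sums differed between these 2 groups as well. Cardiomyocyte markers had 84525 CPM in LV Sham-F against 116114 in LV Sham-H, endothelial markers 2805 against 1691, and fibroblast markers 803 against 504. Their part in the result was not tested. In the RV, 0 genes were called between the stages by edgeR or DESeq2 (0.0502% of all tested genes by edgeR), 0 had an unadjusted p under 0.05 (5.03% of all tested genes), and the median was -0.13. The comparisons share their sham libraries. LV Sham-F enters that of LV AOB-F, that of RV with LV and that of the stages, so that their values are not independent of each other.

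Another 64 myeloid genes that are not members were followed as a list, of which 52 were tested. The list was chosen with earlier results of these data known. It holds *Ccl2*, *Ccl7* and *Cxcl2*, which the study names among genes induced in the LV by AOB. Its shares beside those of all genes are therefore a description and not an independent test. In LV AOB-F 20 of them (38.5%) were called higher and 0 lower, where 8.54% of all tested genes were called higher and 4.35% lower, with a median log2 fold change of 0.84. *Gpnmb*, *Btk* and *Msr1* (a glycoprotein of lipid-laden macrophages, a kinase of leukocytes and a scavenger receptor) rose by 2.73, 2.73 and 2.54 on the log2 scale, and the chemokine genes *Ccl7* and *Ccl2* by 2.12 and 1.53. Without replicates 6 and 7, 2 of the 52 were called higher, *Btk* at 2.38 ± 0.62 (adjusted p = 0.0241) and *Mpeg1*, a pore-forming protein of macrophages. In that fit 3.04% of all tested genes were called in either direction, so that this count was near the background. The median was then 0.37, and *Msr1* and *Ccl2* had log2 fold changes of 0.82 and 0.41. In RV PAB-F 8 (15.4%) were called higher, where 7.66% of all tested genes were, and in RV PAB-H 3 (5.77%), where 3.91% of all tested genes were. By edgeR 0 were called in RV AOB-F, LV PAB-F, LV AOB-H, RV AOB-H and LV PAB-H.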

How the data were processed

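RNA of isolated cardiomyocytes was sequenced in 82 libraries after depletion of ribosomal RNA. The raw counts per gene were made by the authors, who trimmed reads with Trim Galore, aligned them with STAR and counted them with featureCounts. The deposited normalized counts, a signal per gene, were made by the authors by dividing counts by DESeq2 1.28.1 size factors, and were not used. The deposited FPKM values were made by the authors and were used only to set levels of genes side by side. The names of these tools are from the submitters' processing notes, and 0 columns of per-sample values were left without a sample.

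The raw counts were fitted with edgeR 4.0.16 in R 4.3.3, as 1 quasi-likelihood model with a mean per group, TMM factors and 11954 genes left by filterByExpr. Tests were two-sided, and p values were adjusted by Benjamini-Hochberg over all tested genes. The common biological coefficient of variation was 0.244. DESeq2 1.42.0, other factors, no filter, sex, blocks, 2-group fits and left-out libraries were alternatives. The functions were tested on simulated data.

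The members and the gene lists were chosen with earlier results of these data known. All members could be named. Given in full are, in each comparison, up to 8 called genes with the largest absolute log2 fold change and, in each of 9 roles, the gene with the highest mean FPKM. Other genes in full were added after their values were seen. RV and LV libraries with the same number come from 1 rat by the labels, and their deviations from the group means correlated with a median r of 0.205 to 0.347 per condition. Sham and banded rats share only a number. Promoters are from RefSeq on GRCr8, and no coordinate of the count table was used.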

Additional observations from a re-analysis of the deposited data

Results flagged for a closer look

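In 68 sets of 4 to 10 libraries of a group, 18 had a library far from all others by Dixon's test at the 95% level. Many of them share a library. For normally distributed values chance gives this in about 1 of 20 sets. The values here were untransformed, and most sets are of genes called in a comparison, which 1 extreme library can bring about. The 18 can therefore not be read against that rate. RV PAB-F replicate 1 stood apart in the summed level of the 37 genes (512 CPM, others 88.1 to 185), and in the normalized counts of *Lyz2* (1401, others 85.5 to 366), *Mrc1* (580, others 64.9 to 224), *Csf1r* (524, others 88.6 to 221), *Il1b* (512, others 42.2 to 83.9) and *Was* (31.3, others 6.18 to 15.1).

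LV Sham-H replicate 4 stood apart in the summed level (274 CPM, others 90.6 to 159). In normalized counts it was also high for *C1qc* (394, others 32.8 to 112), *C1qa* (292, others 30.9 to 96.2), *C1qb* (218, others 21.5 to 72.5), *Cd14* (145, others 15.9 to 60.7) and *Tyrobp* (59.9, others 7.49 to 18.2). LV AOB-H replicate 6 had a summed level of 263 CPM, where the other 5 had 106 to 122. It also had the lowest depth of all 82 libraries (6675287 counts). Both libraries stood out beyond these genes. LV AOB-H replicate 6 was the highest of its group for 39.6% of all tested genes, and LV Sham-H replicate 4 for 32.6%.

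In normalized counts, LV Sham-F replicate 4 was high for *Lyz2* (704, others 151 to 302) and *Cd14* (221, others 60.8 to 122). The RV library of that rat was high for *Lyz2* (344, others 68.98 to 204). RV Sham-F replicate 3 had 52.9 for *C1qb* (others 13.8 to 32.996), and LV AOB-F replicate 7 had 504 for *Il1b* (others 21.6 to 210). Replicates 6 and 7 of LV AOB-F lay near each other in most genes, and a test of the gap beside 1 extreme library does not find such a pair.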

How the results depend on the processing

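Among the counts of called genes, that of LV AOB-F was 17 with all libraries. It was 0 without LV AOB-F replicates 6 and 7 (3.04% of all tested genes) and 1 in a fit to the 2 groups alone (0.133% of all tested genes). Leaving out 1 library gave 6 to 23, with 6 without LV AOB-F replicate 7 (6.29% of all tested genes). For RV PAB-F (6) no filter on low counts gave 2 (7.67% of all tested genes), the study's criteria gave 3 (1.9%), and leaving out 1 library gave 0 to 9. A fit to the 2 groups alone gave 9 there, where 24.6% of all tested genes were called. For RV PAB-H (2) the DESeq2 size factors, no filter, sex as a covariate and leaving out LV AOB-F replicates 6 and 7 each gave 1, a fit to the 2 groups alone gave 12, and leaving out 1 library gave 0 (without RV PAB-H replicate 2) to 5 (without RV PAB-H replicate 6). As the share of all tested genes moves between fits, counts without it, here and above, are not read as results about these genes. For RV AOB-F (0) the study's criteria gave 2 (0.259% of all tested genes). Between the ventricles of Sham-H (0) sex as a covariate gave 2 and DESeq2 1, and in Sham-F (15) the study's criteria gave 8. LV Sham-F against LV Sham-H (12) gave 7 without a filter, 5 by the study's criteria and 6 to 12 without 1 library. The stage difference of the AOB response (0) gave 1 by DESeq2. The log2 ratio of the summed level in LV AOB-F was 1.18, 0.14 with *Cd74* and *Ncf1* included, and 0.60 without replicates 6 and 7. The cause was not tested. No called gene changed direction under any of these alternatives.

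The replicate number shared by sham and banded rats does not pair them. With it as a block, 9 genes were called in LV AOB-F (7 higher, and *Cd74* and *Ncf1* lower), where 10.1% of all tested genes were called. In RV PAB-F it gave 0, where 7.58% of all tested genes were called, and in RV PAB-H 1. With the animal as a block, where both ventricles come from 1 rat, 2 genes were called in Sham-H and 20 in Sham-F. The shares of all tested genes are not given for these fits, and the counts are not read as results about these genes. Without a filter on low counts *Csf3r* and *S100a9* were also called in LV AOB-F, and *S100a8*, at 0 in every RV Sham-F library, between the ventricles of Sham-F.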
